A study of Mus musculus with 16 samples.

Results

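Chromatin accessibility was compared between mouse cells carrying catalytically inactive TET1 (MUT) and wild-type (WT) cells on day 2 of anterior neural progenitor (antNPC) differentiation. The comparison used 4 of the 16 ATAC-seq libraries of the series, the MUT lines CM59 and CM69 and the WT lines WT70 and WT72. In each library the 50000 distinct peaks with the highest −log10 p were kept, and a region overlapped by one of them was called open. Of 80585 consensus regions, 1392 were open in CM59 and CM69 but not in WT70 or WT72 and were called gained, and 1296 with the opposite pattern were called lost. These were 1.73% and 1.61% of all consensus regions.

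All 4 lines were embryonic stem cells from male lines that the labels describe as B6129S6F1 Tet1<tm1Koh>. The cells were depleted of feeders, plated on gelatin in N2B27 medium and given bFGF from day 0, so on day 2 both genotypes had received the same treatment and no inhibitor. The labels mark the MUT lines as CRISPR homology-directed repair clones, and the study derived them from the WT line WT7. Mock-transfected WT7 clones were also made, and whether WT70 and WT72 were among them was not given in the sources used here, so the mutation and the passage of the MUT lines through cloning cannot be told apart. The series also held these 4 lines on day 3, Tet1 knockout (KO) lines on both days, and WT and KO lines on day 3 with a Wnt activator or inhibitor. Each group had 2 libraries, each from a separate line.

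TET1 is an iron-containing enzyme that oxidises methylated cytosine in DNA to hydroxymethylcytosine and further oxidised products. These products can be lost through replication or, for the further oxidised ones, replaced by base excision repair. The protein also binds repressors such as Polycomb and SIN3A complexes, so a catalytic mutant separates the loss of oxidation from the loss of the protein. By day 2 the cells have left naive pluripotency, and the study describes them as primed, a later epiblast-like state. In it Pou5f1, Otx2 and Dnmt3b are expressed before neural genes such as Pax6 and Sox1. In ATAC-seq, Tn5 transposase inserts adapters into accessible DNA, and a peak marks a nucleosome-depleted promoter or enhancer.

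The mutation is shown first because it defines the groups. Tet1 lies on the minus strand of chr10:62804570-62908996 (mm10). The guide matched the plus strand without mismatch at chr10:62814460-62814479, in exon 11, beside a GGG motif for Cas9 (in capitals).

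Guide: gtgaatgtccttgtgagaatGGG

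The 95-base repair template matched chr10:62814427-62814521 with 3 mismatches. The genome and the template are given with the changed bases in capitals.

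Genome: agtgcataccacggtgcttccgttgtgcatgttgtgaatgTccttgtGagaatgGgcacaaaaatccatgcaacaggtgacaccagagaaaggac

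Template: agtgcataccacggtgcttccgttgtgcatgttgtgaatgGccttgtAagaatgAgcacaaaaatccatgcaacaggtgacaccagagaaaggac

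Counted from the 5′ end of the template, the changes were T41G, G48A and G55A. In the Tet1 transcript that encodes 2007 residues, T41G and G48A gave D1622A and H1620Y, and G55A left A1617 unchanged (A1617A) while changing the Cas9 motif. In the longer transcript of 2039 residues the same changes were D1654A and H1652Y. The histidine and aspartate bind the catalytic iron. Peak files hold no reads, so the mutation itself could not be read in the libraries.

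The regions that set the genotypes apart most sharply lay on chromosome Y. The promoters of Uty, a histone demethylase relative, and of Ddx3y, an RNA helicase, are shown with CG dinucleotides, the targets of TET1, in capitals (RefSeq, GRCm38.p6, 300 bases around the gene start, minus strand).

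Uty, chrY:1245710-1246009: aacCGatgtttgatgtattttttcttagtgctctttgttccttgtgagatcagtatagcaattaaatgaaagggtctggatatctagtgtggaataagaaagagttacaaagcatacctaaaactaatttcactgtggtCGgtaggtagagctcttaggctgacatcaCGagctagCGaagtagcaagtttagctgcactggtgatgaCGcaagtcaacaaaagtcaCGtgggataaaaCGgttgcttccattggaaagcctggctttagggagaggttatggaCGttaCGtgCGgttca

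Ddx3y, chrY:1286564-1286863: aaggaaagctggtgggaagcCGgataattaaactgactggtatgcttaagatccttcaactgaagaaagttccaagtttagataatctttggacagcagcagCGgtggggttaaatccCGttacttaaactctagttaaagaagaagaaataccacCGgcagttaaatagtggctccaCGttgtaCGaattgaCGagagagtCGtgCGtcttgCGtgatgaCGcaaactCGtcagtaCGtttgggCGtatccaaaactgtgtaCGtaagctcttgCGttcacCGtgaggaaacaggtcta

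The Uty promoter held 10 CG dinucleotides and the Ddx3y promoter 17. A region 18776 bases upstream of the T gene, the primitive streak factor Brachyury, in an intron of another transcript, was the strongest lost region near a primitive streak gene. The middle of it is shown because T marks the lineage opposed to neural fate. Capitals mark a CAGCAGG motif on the minus strand (bound by ZIC factors, present in 21.1% of all consensus regions) and a TAATTA motif (bound by homeobox factors, in 4.23%).

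T, chr17:8415498-8415797: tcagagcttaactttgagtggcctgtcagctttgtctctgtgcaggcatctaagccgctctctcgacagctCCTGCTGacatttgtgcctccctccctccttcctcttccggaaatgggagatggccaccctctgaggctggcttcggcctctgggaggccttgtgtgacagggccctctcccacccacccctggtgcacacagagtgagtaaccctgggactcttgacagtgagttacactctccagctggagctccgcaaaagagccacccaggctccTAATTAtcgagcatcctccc

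The 4 libraries held 192975 to 227499 deposited peaks at 159307 to 176686 distinct positions, and the peak at rank 50000 had a −log10 p of 16.2 in CM59, 13.1 in CM69, 18.3 in WT70 and 13.9 in WT72. The files give no read counts, so sequencing depth is unknown. The promoters of Pou5f1, Nanog, Sox2, Dnmt3b and Otx2 were open in all 4 libraries. That of Fgf5 was open in WT72 alone, with fold enrichments of 3.75, 3.83, 3.42 and 4.23 in CM59, CM69, WT70 and WT72. Promoters of other cell types were open to a similar extent in both genotypes. Of 14 extraembryonic endoderm genes 12 had an open promoter in every library, and of 16 fibroblast genes 10, 10, 9 and 10 did, in the same order. An open promoter is no measure of expression.

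In overlap of covered bases, libraries of the same genotype were no more alike than libraries of different genotypes. Of the consensus regions, 41022 (50.9%) were open in all 4 libraries and 7608 in a single library. The covered bases overlapped with a Jaccard index of 0.733 between the MUT libraries, 0.711 between the WT libraries and 0.697 to 0.749 between the genotypes. The mean was 0.722 within and 0.723 between genotypes (exact permutation test, p = 1.0). The highest index, 0.749, was that of CM59 and WT70, a MUT and a WT line.

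Regrouping the 4 libraries gave the comparison that the design allows, and each regrouping also holds differences between lines. MUT against WT set apart 1392 and 1296 regions. CM59 with WT70 against CM69 with WT72 set apart 1402 and 934, and CM59 with WT72 against CM69 with WT70 set apart 827 and 972. The genotype grouping thus had the highest total of the 3, 2688 against 2336 and 1799, which in an exact permutation test gives p = 0.33, the smallest this design allows. The order of the groupings depended on the cut-off. With every peak of −log10 q of at least 2 the genotypes gave 144 and 306 and the first mixed grouping 568 and 51, a higher total, and with every deposited peak 190 and 230 against 331 and 90, a total higher by 1 region. The gained regions alone were fewer than the 1402 of a mixed grouping. That grouping coincided with a mark in the file names, which call the CM69 and WT72 libraries merged without saying how. Within the unmarked libraries CM59 and WT70, 5762 regions were open in the MUT library alone and 5796 in the WT library alone, and within the marked CM69 and WT72 6524 and 5754.

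**Figure D1:**
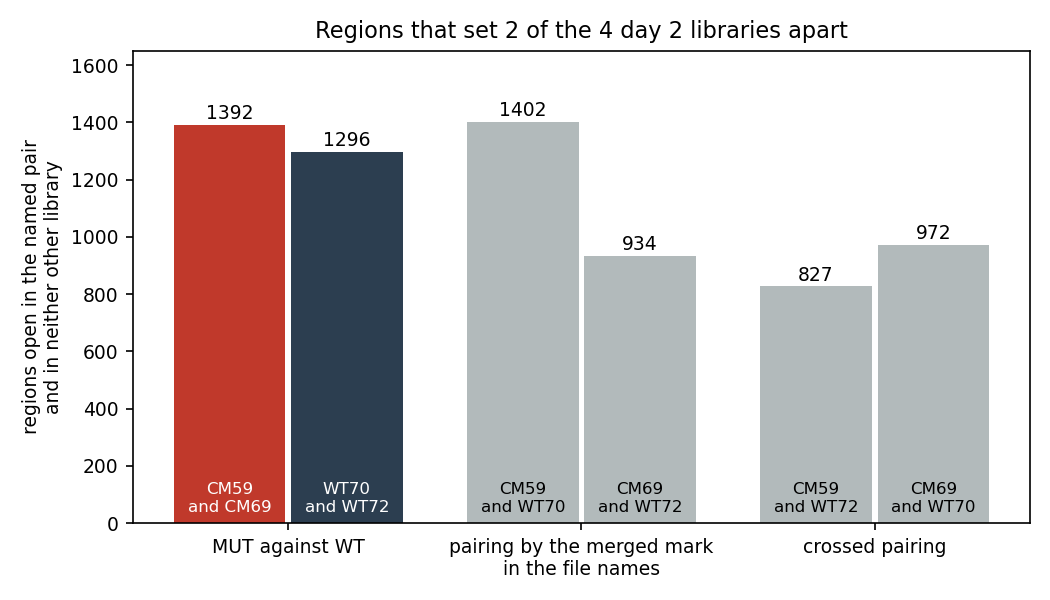
Number of consensus regions open in both libraries of the named pair and in neither of the other 2, for the 3 ways of pairing CM59, CM69, WT70 and WT72. The MUT and WT bars (1392 and 1296) stand beside 1402 and 934 and beside 827 and 972 for the mixed pairings.

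Most gained and lost regions lay at the edge of the rule. Because the rule used the ranks of these 4 libraries, higher MUT values on day 2 at a gained region and lower ones at a lost region, here and in the gene groups that follow, are what it selects and no separate finding. In 769 of 1392 gained and 714 of 1296 lost regions the weaker of the 2 open libraries ranked the peak beyond 45000. A peak of lower rank was present in both libraries of the other genotype in 99.6% of gained and 99.4% of lost regions. The median log2 fold enrichment of gained regions was 2.74 in the MUT pair and 2.37 in the WT pair, and that of lost regions was 2.83 in WT and 2.32 in MUT. The Stk31 region was a gained region just inside the threshold, ranked 48962 and 44264 in CM59 and CM69 and 52190 and 59464 in WT70 and WT72. The Fez1 promoter fell just outside the lost set, since CM59 ranked it 47945 while CM69 ranked it 65120 and the WT libraries 8147 and 8228. With a margin, ranks of at most 40000 in one pair and beyond 60000 in the other, 38 gained and 63 lost regions were left, against 65 and 15 and against 9 and 21 in the mixed groupings.

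The 5 lost regions without a peak of any rank in the MUT libraries (0.0062% of all regions) were all on chromosome Y, and no gained region lacked a WT peak. The Uty promoter (chrY:1245623-1245978) had a fold enrichment of 13 in WT70 and 13.3 in WT72 and no peak in CM59 or CM69. The Ddx3y promoter (chrY:1286450-1286795) had 12.7 and 13.3, and again no MUT peak. A region 9438 bases upstream of Uba1y, a ubiquitin-activating enzyme (chrY:809039-809384), had 10.7 and 12.4. The promoter of Eif2s3y, a subunit of translation initiation factor eIF2 (chrY:1010122-1010715), had 7.02 and 7.14. The remaining region, at chrY:259032-259363, had 10.3 and 9.18 and no annotated gene start within 100 kb. Choosing these 5 regions required an open peak in both WT libraries and no MUT peak, so heights could not be compared.

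The absence extended to the whole gene-rich end of the chromosome and to day 3. Below 5 Mb, a boundary chosen after the values were seen, there were 0 peaks in CM59 and in CM69 on day 2 and 0 in both on day 3. WT70 had 18 and WT72 20 on day 2, and the 12 libraries without the mutation had 15 to 37 (median 19.5). WT7, the line from which the MUT clones came, had 17 in its only library, from day 3 with the Wnt activator CHIR. All 10 consensus regions below 5 Mb, at Zfy1, Uba1y, Eif2s3y, Uty, Ddx3y and further out, had a peak in 12 of 12 non-MUT libraries and in 0 of 4 MUT libraries.

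The other end of chromosome Y was unlike this. Beyond 5 Mb the MUT libraries had 17 to 21 peaks and the others 16 to 20. All 14 consensus regions beyond 5 Mb lay between 90718093 and 90744775, near Gm21860, and 13 of them had a peak in all 4 MUT libraries. Whether their reads came from chromosome Y alone could not be checked, since the files hold no reads. The strongest of them, chrY:90718499-90718813, had fold enrichments of 14.8 to 16.2 in MUT and 13.8 to 15.6 in the other libraries. Elsewhere in the genome a single consensus region lacked a peak in all 4 MUT libraries while at least 11 of the 12 others had one, and none showed the reverse. Peaks cannot tell apart a deletion of Y sequence, the loss of the chromosome and closed chromatin on it. Both MUT lines shared the absence, so it also cannot be told apart from an event in a common precursor or from the mutation. Without chromosome Y the lost regions numbered 1291 and the gained regions 1392.

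**Figure D2:**
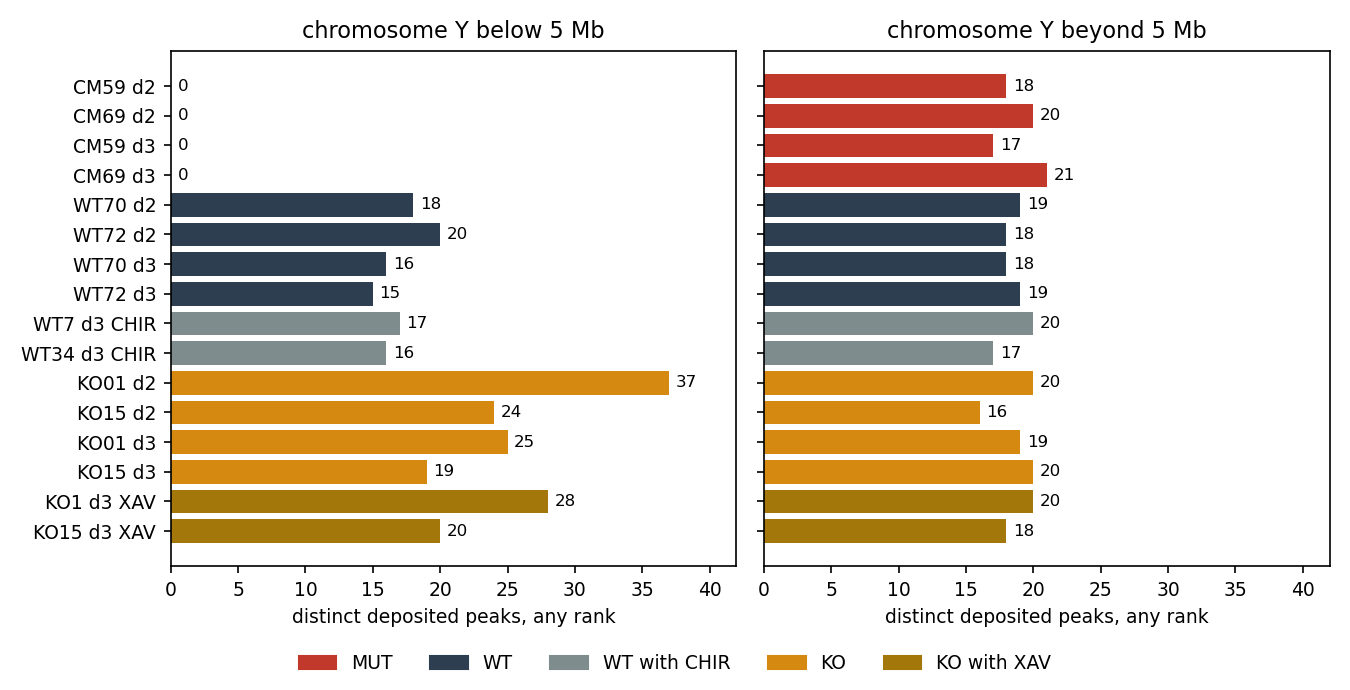
Distinct deposited peaks of any rank on chromosome Y below 5 Mb (left) and beyond 5 Mb (right) in each of the 16 libraries, coloured by group. The 4 MUT libraries have 0 peaks below 5 Mb, where the other 12 have 15 to 37, and 17 to 21 beyond it, where the others have 16 to 20.

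The other chromosomes held gained and lost regions in similar shares. Gained regions made up 1.12% to 2.22% and lost regions 1.27% to 1.89% of the consensus regions of chromosomes 1 to 19 and X. The median peak height of MUT minus WT per autosome was −0.03 to 0.03 on the log2 scale, and −0.04 on X. The longest run of neighbouring consensus regions that were all gained or all lost was 3.

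Tet1 itself was accessible in both genotypes. None of its 11 consensus regions was gained or lost, and the log2 differences ran from −0.52 to 0.21. A promoter region at chr10:62865248-62865584, 112 bases before a gene start, had fold enrichments of 9.97 and 11.5 in CM59 and CM69 and 10.8 and 12.6 in WT70 and WT72. The region at chr10:62892577-62892930, at another start, had 9.71 and 10.2 in MUT and 9.04 and 13.3 in WT. At both, the values of the genotypes were interleaved.

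**Figure D3:**
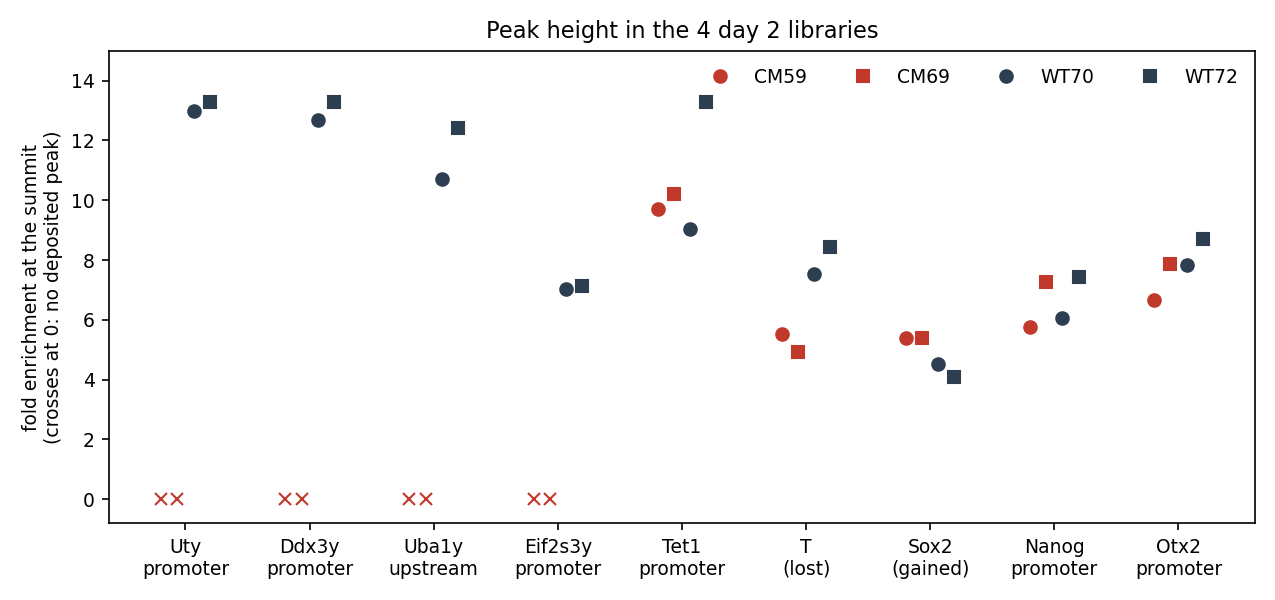
Fold enrichment at the summit (linear axis) of named regions in CM59, CM69, WT70 and WT72 on day 2, 1 point per library, with crosses at 0 for no deposited peak. The Y-linked regions have a WT peak and no MUT peak, while Tet1, Nanog and Otx2 overlap between genotypes and T (lost) and Sox2 (gained) differ by less than 4 units between any MUT and any WT library.

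Peak height was then tested in the 72333 regions with a peak in all 4 libraries, on the log2 of the summit fold enrichment. No region passed an adjusted p of 0.05 in limma with Benjamini-Hochberg adjustment, with 0 higher (0%) and 0 lower (0%) in MUT and a smallest adjusted p of 0.181. At an unadjusted p under 0.05, 2022 regions (2.8%) were higher and 2536 (3.51%) lower. The mixed groupings gave 2681 and 1786, and 980 and 1247, with 0 calls in each. The median within-group SD was 0.15 and the median absolute difference between genotypes 0.12, and 1 region in 100 differed by more than 0.67.

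The smallest p-values belonged mainly to peaks that ran over a neighbouring region. The promoter of Hsd17b10, a mitochondrial dehydrogenase (chrX:152002163-152002486), had 4.55 and 3.56 in MUT and 17.4 and 18.8 in WT (log2 difference −2.10, SE 0.17, limma adjusted p = 0.181). Its WT peaks covered 2 consensus regions and its MUT peaks 1. With the summit that lay inside the region, the values were 4.55 and 3.56 against 3.17 and 3.86. Of the 10 regions with the smallest p, 5 in each direction, 9 were joined in this manner in both libraries of the higher genotype. These included the top regions at Fam110c, Lclat1, Lemd3, Sfr1 and Plekha6 among the higher and at Pkhd1l1, Elfn1 and Fez1 among the lower. The exception was an exonic region of Epb41l5, which encodes an epithelial membrane-skeleton protein (chr1:119642387-119642734). It was a lost region and had 2.62 and 3.05 in MUT and 9 and 7.14 in WT (−1.46 ± 0.19 SE, limma adjusted p = 0.643 with summits inside the region). On day 3 the peaks over it had 3.06 in CM59, 2.44 in CM69, 5.19 in WT70 and 4 in WT72, where the summit of the CM69 peak lay outside the region.

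Taken over all lists of genes with a role in these lineages, gained and lost regions were about as frequent as elsewhere. The 17 lists held 306 genes and 1976 consensus regions, of which 26 were gained (1.32%) and 38 lost (1.92%), beside 1.73% and 1.61% of all regions. Single lists ran from 0% to 4.55% gained and from 0% to 4.49% lost, and their differences from all regions were not tested. No region of any list was called in the height test. The median log2 difference of each list lay between −0.04 and 0.02 except for methylation-sensitive germline genes, at 0.11 over 38 regions, and was 0.01 over all regions. The 15 housekeeping genes had 0 gained and 0 lost regions.

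Neuroectoderm genes had 4 gained (1.64%) and 8 lost (3.28%) regions of 244, and their median difference was −0.02. A gained region 20963 bases downstream of the start of Sox2, a pluripotency and neural factor (chr3:34671044-34671692), had 5.4 and 5.39 in MUT and 4.51 and 4.08 in WT (0.39 ± 0.15 SE, limma adjusted p = 0.766). A region 3635 bases downstream of the Sox2 start had 3.77 and 4.18 in MUT against 3.04 and 3.32. At both, the rule fixed the order of the genotypes, and the values differed by less than 1.5 units. A region 83962 bases downstream of Sox1, an early neural factor, had 5.74 and 6.05 against 4.63 and 4.24. On day 3 the Sox1 region had 5.49 and 5.1 in MUT and 5.29 and 4.26 in WT, and the genotypes overlapped. At the promoter of Zic1, a lost region, the values were 3.3 and 3.06 against 3.57 and 4.53.

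Pluripotency genes showed both directions. The naive and core list had 4 gained (2.9%) and 5 lost (3.62%) regions of 138. The formative list had 1 (0.621%) and 4 (2.48%) of 161. Prdm14, which sustains naive pluripotency, had 1 gained region with 6.13 and 7.26 in MUT and 5.33 and 4.87 in WT, and 2 lost regions. The lost region near its start had 4 and 4.63 in MUT and 5.48 and 6.15 in WT. Nptx2 likewise had 1 of each. At the Nanog promoter CM59 had 5.75, CM69 7.28, WT70 6.06 and WT72 7.44, and at the Otx2 promoter the values were 6.67, 7.88, 7.85 and 8.72. Neither separated the genotypes.

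Primitive streak genes had 1 gained (0.641%) and 4 lost (2.56%) regions of 156. At the T region shown above, chosen as lost, MUT had 5.53 and 4.92 and WT 7.55 and 8.43 (−0.55 ± 0.15 SE, limma adjusted p = 0.705). On day 3 it had 3.9 and 5.23 in MUT and 8.74 and 6.3 in WT, and in KO on day 2 6.62 and 4.52. The other T regions were neither gained nor lost, and its promoter was open in all 4 libraries. A region 14800 bases downstream of Snai1, a driver of epithelial-mesenchymal transition, had 5.47 and 4.69 in MUT and 7.47 and 7.78 in WT. On day 3 that Snai1 region had 9.03 and 7.27 in MUT against 9.21 and 8.6. The promoter of Gsc, the organiser factor goosecoid, was lost with 3.62 and 3.8 against 4.37 and 5.8, and that of Fgf8 was gained with 3.75 and 3.88 against 2.95 and 3.66.

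The endoderm list had 4 gained (3.74%) and 2 lost (1.87%) regions of 107, beside 1.73% and 1.61% of all regions. The mesoderm list had 2 (1.16%) and 3 (1.73%) of 173. Of the gained endoderm regions, 2 lay near Trh, a hormone precursor gene, with 7.51 and 6.92 against 6.14 and 5.29 in the first. A gained intronic region of Cpm, a carboxypeptidase, had 6.84 and 6.47 in MUT and 5.67 and 4.17 in WT, and 5.78 and 5.49 against 3.81 and 4.33 on day 3. The Mef2c promoter region, at a gene for a muscle and neural factor, was lost with 5.47 and 5.49 against 7.68 and 7.48. A region 24386 bases from Tcf15, a paraxial mesoderm factor, had 6.42 and 5.49 against 7.24 and 8.16.

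Signalling genes had 1 gained (0.781%) and 0 lost regions of 128 in the Nodal list, and 3 (1.12%) and 1 (0.375%) of 267 in the Wnt list. A gained region 11586 bases upstream of Tcf7l1, a repressor of Wnt targets, had 9.4 in CM59, 6.8 in CM69, 5.27 in WT70 and 6.55 in WT72. On day 3 its values were 6.12 and 2.74 against 4.85 and 3. An intronic region of Tcf7l2, the Wnt effector, had 6.42 and 6.7 against 5.21 and 6.12. The gained Nodal region lay 27362 bases from Smad7, an inhibitor of TGF-β signalling, with 5.38 and 6.22 against 4.6 and 4.65.

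Chromatin regulators had 0 gained and 2 lost (2.41%) regions of 83 in the DNA methylation list. The Polycomb list had 2 (1.54%) and 3 (2.31%) of 130. The lost region near Tet2, a second methylcytosine dioxygenase, lay 34256 bases upstream and had 4.04 and 5.8 in MUT and 10.5 and 7.48 in WT (−0.83 ± 0.25 SE, limma adjusted p = 0.713). On day 3 it had 4.76 and 2.74 in MUT and 7.96 and 2.67 in WT, so the genotypes overlapped there. A region 48335 bases from Eed, a core subunit of Polycomb repressive complex 2, had 5.47 and 5.24 against 8.2 and 8.26. Bcor, of a variant Polycomb repressive complex 1, had 2 lost regions of 24, and at the stronger MUT had 4 and 4.51 and WT 5.28 and 5.41.

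Germline genes whose promoters are usually silenced by methylation had 2 gained (4.55%) and 0 lost regions of 44. The gained promoter of Asz1, a gene of the piRNA pathway, had 6.66 and 8.54 in MUT and 6.15 and 6.12 in WT, and on day 3 a peak in WT72 alone. The promoter of Hormad1, a meiotic gene of the same list, had 5.95 and 5.49 in MUT and 6.58 and 9.52 in WT.

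Imprinted genes had 2 gained (2.25%) and 4 lost (4.49%) regions of 89. The promoter region of Gnas at chr2:174284056-174284416, at the 5′-most start of this imprinted locus, was neither and had 3.39 and 4.75 in MUT and 1.93 and 2.66 in WT (0.90 ± 0.22 SE, limma adjusted p = 0.693). On day 3 it had 3.87 and 4.08 in MUT and no peak in WT70 or WT72. KO on day 2 had 3.54 and 3.73, and the WT line WT7, known here only from day 3 with CHIR, had 3.19. A further Gnas region, intronic at chr2:174312142-174312475, was lost, with 5.7 and 4.92 in MUT and 6.33 and 7.81 in WT.

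Among other cell types, Elf5, a trophoblast factor silenced by methylation in embryonic cells, had a gained region 895 bases upstream with 6.36 and 7.02 in MUT and 6.01 and 5.44 in WT. Ascl2, another trophoblast factor, had a lost region with 4.17 and 5.68 against 7.44 and 8.08. A region 30504 bases from Twist2, a mesenchymal factor, had 4.11 and 3.51 in MUT and 7.46 and 8.59 in WT (−1.01 ± 0.16 SE, limma adjusted p = 0.605). Cubn, of extraembryonic endoderm, had 5 and 5.19 against 7.46 and 7.82.

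Few genes gathered several regions. Gained regions were assigned to 1084 genes and lost regions to 1041, with at most 3 per gene. Outside the lists, gained regions were most numerous at Dst, Ephb3, Akap12 and Tead1, with 3 each of 29, 16, 17 and 26 consensus regions. Dst, Ephb3 and Tead1 each also had a lost region. Uchl5 had 2 gained of 5. Over all consensus regions the shares were 1.73% gained and 1.61% lost. At Ephb3, an ephrin receptor, an intronic region had 5.69 and 6.41 in MUT and 3.34 and 3.88 in WT (0.79 ± 0.16 SE, limma adjusted p = 0.667). At Tead1 2 of the regions were adjacent and shared their peaks. The lost regions were most numerous at Usp29, Nectin1 and Trappc9, with 3 each of 20, 27 and 10 consensus regions. Usp29 also had a gained region with 7.01 and 7.02 in MUT and 5.27 and 5.09 in WT. The strongest lost Usp29 region, in an imprinted domain, had 4.85 and 5.99 in MUT and 8.41 and 9.86 in WT. At Lhx9, a LIM homeobox gene, the region 2157 bases from the start had 5.71 and 5.49 in MUT and 9.22 and 11.9 in WT.

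Gained and lost regions were mostly distal. Of the gained 70.4% and of the lost 70.7% lay more than 3 kb from any gene start, beside 59.1% of all regions, 45.1% of those open in all 4 libraries and 64.8% to 71% in the mixed groupings. The median GC content was 48.8% in gained and 52.8% in lost regions, with 1.17 and 1.57 CpG per 100 bases, and 1.63 in all regions. The mixed sets had 49.5% to 52.2% GC and 1.2 to 1.49 CpG per 100 bases. In a 301-base window read on both strands, TAATTA (homeobox) occurred in 7.18% of gained and 2.62% of lost regions, 4.22% to 6.17% of the mixed sets and 4.23% of all. TGANTCA (AP-1) occurred in 17.5% and 10.6%, with 9.26% to 15.8% in the mixed sets. ATGCAAAT (OCT) occurred in 4.31% and 1.7%, with 2.42% to 3.71%, and CAGCAGG (ZIC) in 20.8% and 22.8%. AGATAAG (bound by Gata4 and its relatives) occurred in 3.52% and 3.63% and TGTTTAC (forkhead) in 3.88% and 3.78%. These shares are descriptions of sequence and were not tested, and the sets differed in GC content.

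The other 12 libraries helped to define the consensus regions but did not decide which of them were gained or lost. With regions built from the 4 libraries alone, 1300 were gained and 1259 lost. On day 3 the gained regions were open in 46.3% of cases in CM59 and 43.4% in CM69 and in 39.7% and 39.9% in WT70 and WT72, a difference of 5.03 percentage points (exact permutation test, two-sided, p = 0.33, the smallest possible). The lost regions were open in 32.8% and 41.4% in MUT and 50.2% and 43.8% in WT, a difference of −9.88 points (exact permutation test, p = 0.33). Both differences had the day 2 direction without overlap at this cut-off. Without the CM59 library the second was −5.59 points (p = 0.667 by exact permutation). With the top 25000, the top 100000 or every deposited peak, the first was 0.862, 0.575 and 1.69 points (exact permutation p = 1, 1 and 0.667) and the second −1.97, −6.94 and −2.51 points (exact permutation p = 0.33, 0.33 and 0.667). They concerned the same 4 lines, so persistence of line and of genotype cannot be told apart. All consensus regions were open in 61.4% to 65.1% of cases in the 12 libraries other than these 4. Of the gained regions 61 (4.38%) were gained again on day 3, beside 1.89% of all regions and 2.68% to 3.85% of the mixed sets. Of the lost regions 83 (6.4%) were lost again, beside 1.94% and 2.26% to 3.99%.

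In the KO lines, which lack the TET1 protein, the gained regions were open in 52.7% and 46.2% of cases in KO01 and KO15 on day 2. The lost regions were open in 43.2% and 36.5%. The mixed sets were open in 38.7% to 58.6% of cases in KO01 and 40% to 45.6% in KO15. With the Wnt activator CHIR, WT libraries of day 3 had 29.7% and 30% of the gained and 32% and 33.6% of the lost regions open. In the mixed sets the CHIR libraries had 28.8% to 34% open.

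**Figure D4:**
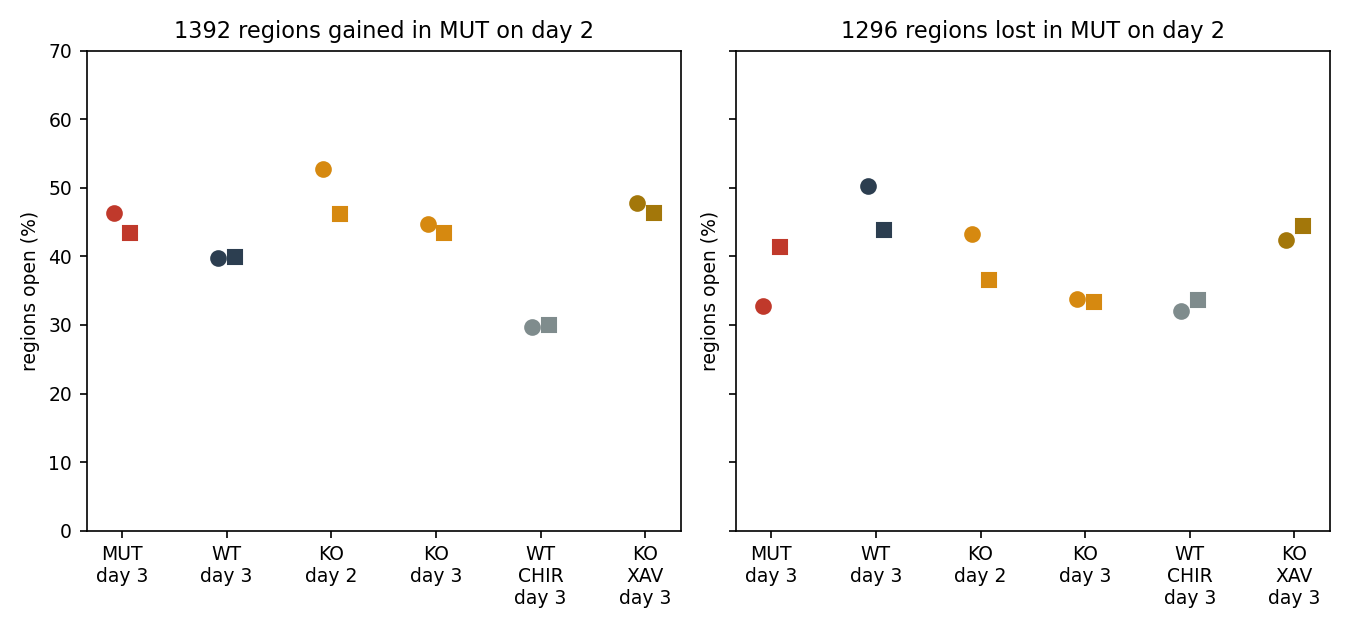
Share of the regions gained (left) and lost (right) in MUT on day 2 that were open in each of the other 12 libraries. Each point is 1 library, with circles for replicate 1 and squares for replicate 2. On day 3 MUT lies above WT for gained regions (46.3 and 43.4 against 39.7 and 39.9%) and below it for lost regions (32.8 and 41.4 against 50.2 and 43.8%).

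The KO itself gave a further set of regions chosen without the day 2 libraries, the study's differentially accessible regions (DARs) between KO and WT on day 3. Of the 920 DARs closed in KO, 68.5% and 68.2% were open in CM59 and CM69 on day 2 and 76.3% and 72.5% in WT70 and WT72, without overlap. The difference was −6.09 percentage points (68.3 ± 0.231 against 74.4 ± 2.69%, SD, n = 2; exact permutation test, two-sided, p = 0.33, the smallest possible), and the mixed groupings gave 2.07 and −1.74 points. It was −2.5 points with the top 100000 peaks and −0.978 with every deposited peak (exact permutation test, p = 0.33 and 0.667). In KO on day 2 they were open in 58.9% and 57.8%, so MUT lay between KO and WT. On day 3 MUT had 64.8% and 75.5% and WT 89.1% and 83.5%, but those WT libraries had served to choose the DARs. The WT and KO lines of day 2 were the same as those of day 3. Their day 3 libraries served to choose the DARs, so the order of WT, MUT and KO on day 2 was not independent of that choice.

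Of the 849 consensus regions on these DARs, 26 were lost (3.06%) and 3 gained (0.353%), beside 1.61% and 1.73% of all regions. The mixed groupings gave 11 and 6, and 5 and 4. The median log2 difference was −0.06 over the 834 tested, of which 62.5% were below 0, beside 0.01 and 48.5% over all regions. None passed the limma test. The Fgf14 promoter region, at a fibroblast growth factor gene of neurons (chr14:124677419-124677780), had 3.3 and 4.1 in MUT and 7.05 and 6.94 in WT (−0.88 ± 0.17 SE, limma adjusted p = 0.667). On day 3 it had 5.02 and 4.14 in MUT and 8.23 and 6.07 in WT, and in KO on day 2 3.97 and no peak. An intronic region of Dock8, a guanine nucleotide exchange factor, had 5 and 6.41 against 8.78 and 9.52. A region within 3 kb of the Col4a1 start, a basement membrane collagen, had 5.33 and 4.58 against 7.18 and 9.19. Near Dnmt3a, a de novo DNA methyltransferase, an intronic region had 4.69 and 4.95 in MUT and 5.8 and 6.29 in WT. In each of these regions both MUT values lay below both WT values, which the rule for lost regions favours. On day 3, 46.2% and 57.7% of the 26 were open in CM59 and CM69, 88.5% and 84.6% in the WT libraries used to choose the DARs, and on day 2 in KO 15.4% and 11.5%.

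The 1077 DARs open in KO were largely shut in both genotypes on day 2. They were open in 5.11% and 5.76% of cases in MUT and 4.92% and 4.46% in WT, a difference of 0.743 points (exact permutation test, p = 0.33). In KO on day 2 the shares were 8.45% and 5.39%. On day 3 CM59 had 15.8% and CM69 8.82%, against 5.01% and 5.76% in WT. Of the 926 consensus regions on these DARs, 2 were gained and 2 lost (0.216% each), beside 1.73% and 1.61% of all regions. The mixed groupings gave 4 and 4, and 2 and 7. Of the 926, 223 had a peak in all 4 libraries.

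**Figure D5:**
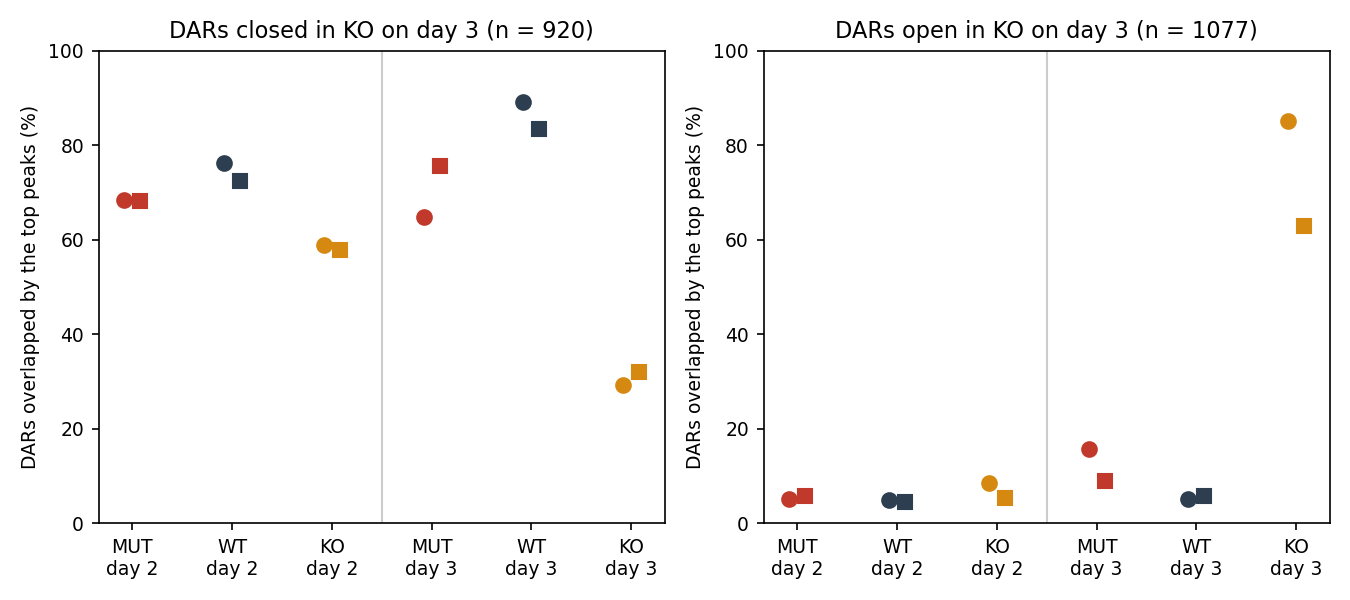
Share of the study's day 3 KO against WT DARs overlapped by the top 50000 peaks of each library, for DARs closed in KO (left, n = 920) and open in KO (right, n = 1077), circles for replicate 1 and squares for replicate 2. On day 2 MUT (68.5 and 68.2%) lies between WT (76.3 and 72.5%) and KO (58.9 and 57.8%) at the closed DARs. The DARs were chosen on day 3 libraries of the same WT and KO lines. All 3 groups lie under 10% at the open DARs on day 2.

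The size of the day 2 contrast can be read beside the other genotype contrasts of the series, of which KO against WT on day 2 shares its WT libraries. MUT against WT on day 3 gave 1525 gained and 1562 lost regions, with totals of 2297 and 2727 for its mixed groupings against 3087. KO against WT gave 1586 and 1751 on day 2, with totals of 2461 and 1688 for its mixed groupings against 3337. On day 3 it gave 3158 and 3402, with 2114 and 2016 for its mixed groupings against 6560. Regions with no peak of any rank in the other genotype numbered 0 and 5 here, 8 and 9 for MUT on day 3, 4 and 1 for KO on day 2, and 435 and 86 for KO on day 3.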

How the data were processed

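ATAC-seq peaks of CM59, CM69, WT70 and WT72 on day 2 were analysed, with the other 12 libraries for comparison. Per the study's methods, the authors ran the ENCODE ATAC-seq pipeline on each library and aligned to mm10 (per the labels). Versions of the aligner and the peak caller were not stated. The deposited files hold fold enrichment at the summit (a ratio to local background) and −log10 p and −log10 q per peak, with a minimum −log10 p of 2. A peak with several summits appears on several lines, and the distinct interval was kept once with its highest value. They hold no counts, so no interval of counting error could be given. The authors' DARs came from DiffBind 3.0.15.

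Summits of the top 50000 intervals per library were extended by 150 bp and merged over all 16 libraries, and regions seen in at least 2 libraries were kept (80585, median width 343 bp). An overlap of 1 base made a region open. Peak heights were compared with limma 3.58.1 (R 4.3.3) on log2 fold enrichment after quantile normalisation, with no pseudocount, over regions with a peak in all 4 libraries. The script was checked on simulated data. Genes were assigned by the nearest start within 100 kb, and promoters of gene lists lay within 1 kb. Replicates were separate lines, with n = 2 per group.

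The regions named were Tet1; per direction 12 listed genes and 5 others with most regions, ties by the higher of the lowest enrichments; regions without any peak in the other genotype; the 5 smallest p; and the most different promoters per list. Lineage genes measured by qPCR in the study were included. The members and lists were chosen with earlier results of these data known. The 5 Mb boundary, summits inside regions, the rank margin, the removal of chromosome Y and the DAR regions named were chosen after values were seen.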

Additional observations from a re-analysis of the deposited data

How the results depend on the processing

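No paired analysis was possible because the labels carry no replicate numbers and each library is a separate line. The file-name mark served as a block in its place, and replicate 1 and 2 in the plots only name libraries. The counts of gained and lost regions moved with the cut-off. They were 792 and 761 with the top 25000 peaks (mixed groupings 874 and 606, 473 and 563), 332 and 407 with the top 100000 (502 and 179, 229 and 260), 144 and 306 with every peak of −log10 q of at least 2 (568 and 51, 153 and 171), 190 and 230 with every deposited peak (331 and 90, 122 and 173), 0 and 5 with strict absence, and 38 and 63 with the rank margin. Within the unmarked pair they were 5762 and 5796, and within the marked pair 6524 and 5754. Leaving out 1 library gave 2830 to 3780 gained and 2885 to 3235 lost regions, since fewer libraries must agree. Covering at least 50% of the region gave 1412 and 1300.

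In the height test, regions open in all 4 libraries gave 4 higher and 3 lower calls, of which 6 of 7 were joined peaks, and no filter on absent peaks gave 0 higher and 3 lower calls, at Uba1y, Uty and Ddx3y. Centring on the median, −log10 p in place of fold enrichment, summits inside the region, the file-name mark as a block and leaving out each library gave 0 calls (1387 to 3177 higher and 2040 to 3072 lower at an unadjusted p under 0.05). The difference in Jaccard index changed sign with the top 100000 peaks, from −0.00126 to 6.42e-04.

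The difference at DARs closed in KO was −2.5 points with the top 100000 peaks and −0.978 with every peak, and −4.18 to −7.99 when 1 library was left out. The day 3 difference of gained regions was 0.575 to 1.69 points and that of lost regions −1.97 to −6.94 under other cut-offs. With 2 lines per group no exact test could fall below 0.33, and sequencing depth is unknown.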

Other observations

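The values here were chosen after they were seen. The promoter region of Nudt12, a gene for a hydrolase of NAD-capped RNA (chr17:59013195-59013526, 12 bases from the start), had a summit fold enrichment of 5.95 in CM59 and 5.19 in CM69 and of 13 in WT70 and 11.9 in WT72 on day 2. On day 3 the values were 5.1 and 5.49 in MUT and 14.2 and 9.33 in WT, and the KO and treated libraries of the series had 7.55 to 12, all above the 4 MUT values. The log2 difference on day 2 was −1.10 ± 0.17 SE (limma adjusted p = 0.643 with summits inside the region). The middle of the region held 11 CG dinucleotides, in capitals, on the plus strand.

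Nudt12, chr17:59013211-59013510: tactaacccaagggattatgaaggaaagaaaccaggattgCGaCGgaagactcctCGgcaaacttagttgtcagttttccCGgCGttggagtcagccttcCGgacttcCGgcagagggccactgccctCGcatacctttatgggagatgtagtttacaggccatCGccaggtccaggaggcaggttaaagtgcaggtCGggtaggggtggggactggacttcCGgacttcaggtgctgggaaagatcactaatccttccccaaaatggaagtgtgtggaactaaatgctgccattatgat

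Outside chromosome Y, a single region lacked a peak in all 4 MUT libraries while at least 11 of the 12 others had a peak. It lay in an intron at chr5:75599641-75599963, 10772 bases from a gene start of Kit, the stem cell factor receptor, and had 4.07 in WT70 and 6.98 in WT72 on day 2 and 3.6 and 3.67 on day 3. Of the 4 day 2 libraries WT72 alone had it open, and 11 of the 12 libraries without the mutation had a peak there.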
